A study of Mus musculus with 6 samples.

Results

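Integrin and laminin chain genes were examined in ear skin RNA of mice that had lost the VEGF receptor gene Vegfr2 from the endothelium. The genes were taken by name: all Itga, Itgb1 to Itgb8 and Lama, Lamb and Lamc symbols of the count table with at least 10 counts in at least 3 of the 6 libraries. This gave 36 genes of the 18422 in the table, namely 17 integrin alpha, 8 integrin beta and 11 laminin chain genes. A further gene that fits the name, Itgad, had 0 to 7 counts per library and was left out. The least counted genes inside the limit were Lama1, with 17 to 31 counts per library, and Itgb8, with 25 to 31. All 36 passed the filter on low counts used for testing.

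Mice called ecko carried the endothelial deletion of Vegfr2 (official symbol Kdr), and the others were littermate controls. There were 3 ecko and 3 control libraries, all from skin at postnatal day 21, and both groups had been given tamoxifen, which induces the deletion. The labels name neither the promoter that drives the deletion nor the strain, and do not say which of the tamoxifen schedules of the series these pups received. The deleted gene separated the groups, with Kdr at 3.36, 2.05 and 2.35 CPM (counts scaled to a common library total) in ecko 1 to 3 and 27.4, 29.1 and 33.7 CPM in controls 1 to 3. Its log2 fold change was -3.54 (SE 0.17, edgeR adjusted p = 2.68e-05).

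Integrins are cell surface receptors built from an alpha and a beta chain, and they tie the actin or keratin skeleton of a cell to the matrix around it or to other cells. Laminins are secreted proteins assembled from an alpha, a beta and a gamma chain, and they form the sheet of the basement membrane to which many integrins bind. In skin, laminins of the epidermal junction hold keratinocytes through alpha6 beta4 integrin, laminins with the alpha4 or alpha5 chain surround vessels, the alpha2 chain surrounds muscle fibres and nerves, and integrins with the beta2 chain belong to leukocytes.

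Library totals lay between 17255416 and 18054696 estimated counts, and 14866 genes were tested. Y-linked reads marked the third library of each group as female and the others as male, so the sexes were balanced. Whole skin mixes many cell types, and no marker of the cell type lists was at 0 in all libraries. Of 14 endothelial markers 10 fell in ecko skin and none rose, with a summed level of 348 to 357 CPM in ecko and 529 to 569 CPM in controls. In such bulk samples, fewer cells of a type and less RNA per cell cannot be told apart. The labels do not say that libraries of a group came from separate litters or cultures, so p-values measure only the spread between these samples.

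None of the 36 integrin and laminin genes passed the test in either direction (an adjusted p under 0.05 in edgeR's quasi-likelihood test, with the Benjamini-Hochberg method over all genes). Among all genes tested 1.76% passed, 0.686% higher and 1.08% lower in ecko skin. An unadjusted p under 0.05 was found for 6 of the 36 genes, or 16.7%, against 15.4% of all genes. DESeq2 and limma-voom called 0 of the 36 as well, with an unadjusted p under 0.05 for 5 and 6 of them. Over all genes this held for 1728 of 18422 with DESeq2 and 2270 of 14866 with limma-voom. The ecko and control values did not overlap for 8 of the 36 genes (22.2%), a share close to the 21.0% of all genes. In 6 of these ecko skin was higher, where the share over all genes was 10.2%, and in 2 it was lower, where it was 10.8%. The median size of the log2 fold change was 0.09 for the 36 genes and 0.10 for all genes tested, and the signed medians were 0.06 and 0.00.

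**Figure D1:**
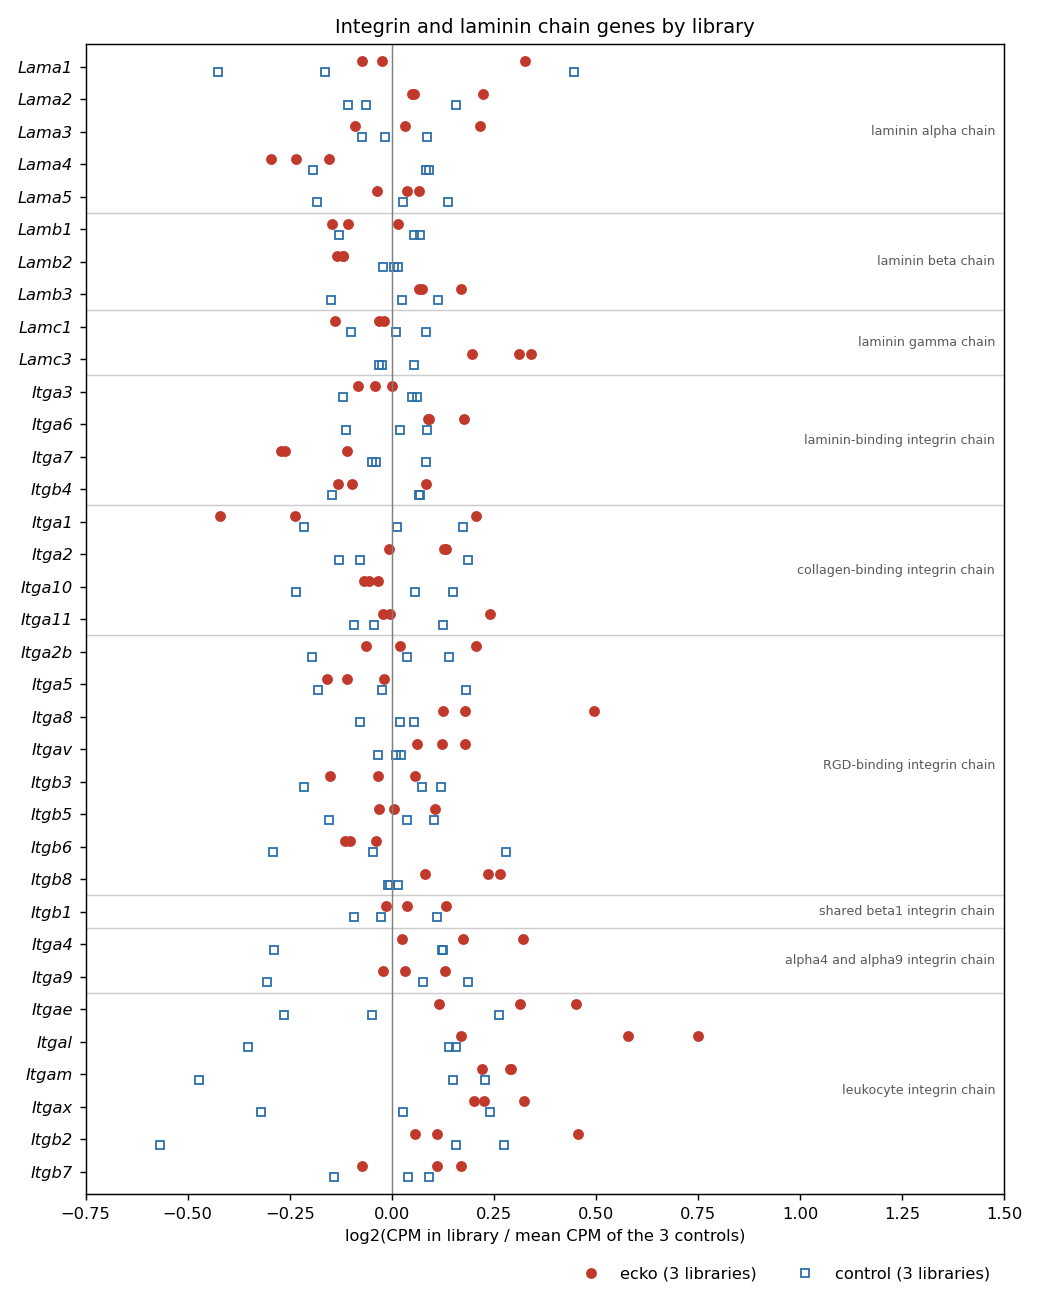
Level of 35 of the 36 genes in each library, as log2 of its CPM over the mean CPM of the 3 controls, with ecko libraries as filled circles and control libraries as open squares. For 27 genes drawn the symbols of the groups overlap, and the other 8 include Lamc3, Itga7 and Lamb2.

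The intervals set how large a change could have been missed. For 27 of the 36 genes the 95% interval of the log2 fold change, taken gene by gene without adjustment, lay inside -0.5 to 0.5. The lower bound was above -0.5 for 34 genes, all but Itga1 at -0.50 and Lama1 at -0.55. The upper bound was under 0.5 for 28 genes, and the others were Itgal, Lama1, Itgb8, Itgb2, Itgae, Itgam, Itgax and Itga8, with Itgal reaching 0.93. By comparison the endothelial junction gene Cdh5 had a log2 fold change of -0.93 with an interval of -1.08 to -0.78, and the median over the 14 endothelial markers was -0.78.

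**Figure D2:**
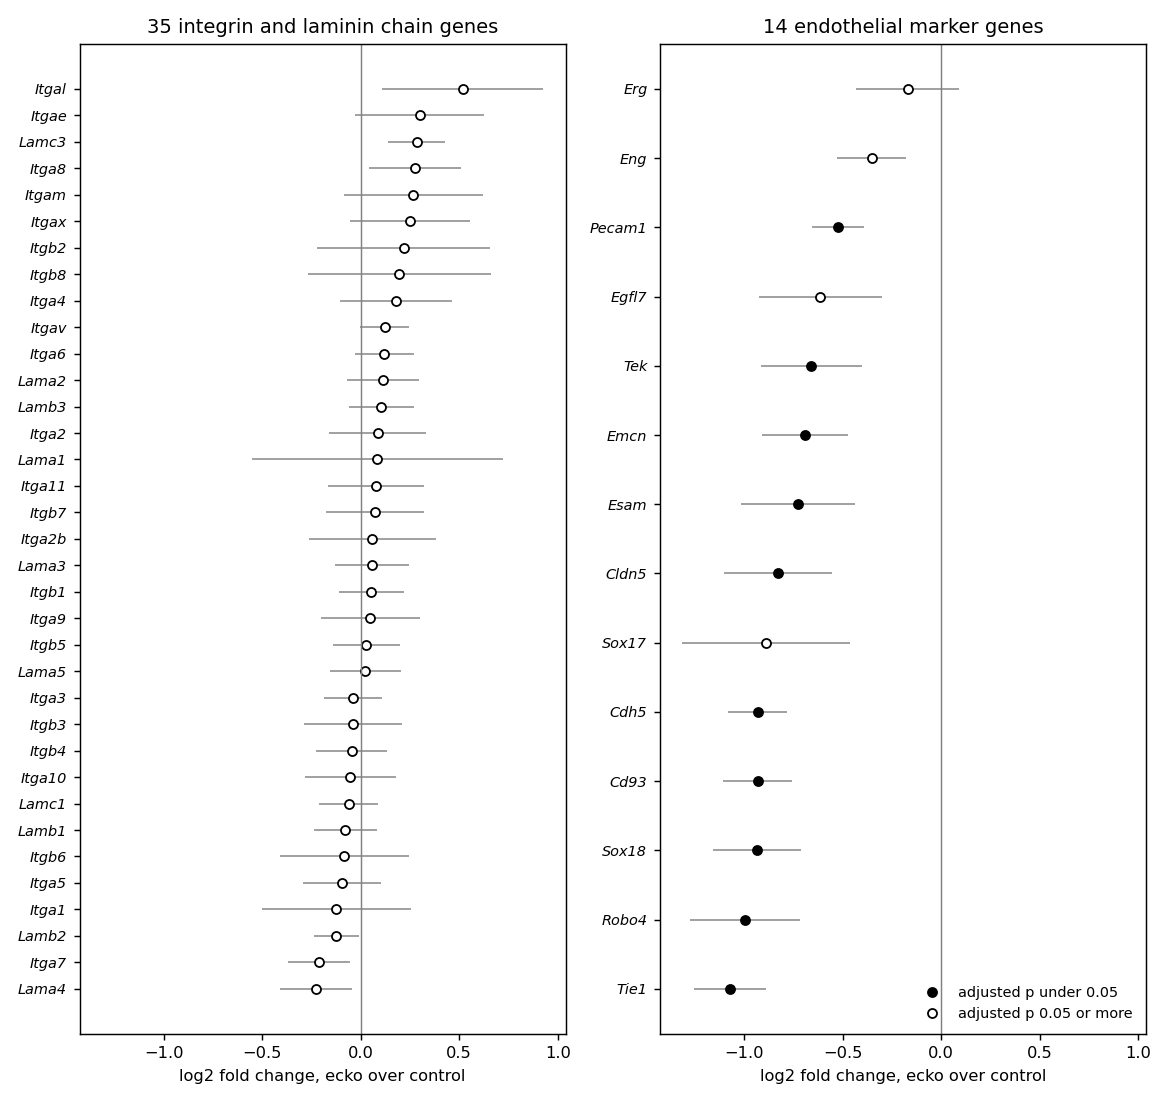
Log2 fold change of ecko over control with its 95% interval for 35 of the 36 integrin and laminin genes (left) and for 14 endothelial markers (right), where filled points have an adjusted p under 0.05. All 35 points on the left are open and lie between -0.23 and 0.52, while 10 of the 14 on the right are filled and lie below 0.

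The laminin alpha chains decide which receptors a laminin can bind. Lama4, whose chain is a laminin alpha chain of endothelial and mural basement membranes, had the lowest log2 fold change of the 36 genes. It had 88.1, 97.2 and 91.9 CPM in ecko 1 to 3 and 94.7, 115 and 115 CPM in controls 1 to 3. All ecko libraries were below controls 2 and 3, but control 1 lay below ecko 2, so the groups overlapped. The log2 fold change of Lama4 was -0.23 (SE 0.08, interval -0.41 to -0.04, edgeR adjusted p = 0.231). It was -0.31 without control 1 (edgeR adjusted p = 0.0587), its lowest value over the alternatives. It was -0.18 without control 2, without control 3 and in the male libraries alone (edgeR adjusted p = 0.443, 0.318 and 0.502). The summed level of the 10 mural markers was 790 to 832 CPM in ecko and 990 to 1086 CPM in controls. Both marker sums were lower in all ecko libraries. Among the controls the endothelial sum was highest in control 1, at 569 CPM, where Lama4 was lowest. The mural sum was also highest there, at 1086 CPM. Control 1 was, by contrast, the lowest control for the lymphatic endothelial and the fibroblast marker sums. The lymphatic endothelial sum was 308.1, 332.5 and 382.5 CPM in controls 1 to 3 and 227 to 246 CPM in ecko skin. The fibroblast sum was 18010, 21850 and 22450 CPM in controls 1 to 3 and 17160 to 20300 CPM in ecko skin. Des alone had 402, 338 and 315 CPM in controls 1 to 3, so a single gene weighs on the order of the mural sum. The part of endothelial, mural or other cell content in the Lama4 values was not tested.

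Lama5, the other vascular alpha chain, which is also made by the epidermis, had 104, 106 and 98.3 CPM in ecko skin and 111, 88.8 and 103 CPM in controls. Its highest and its lowest library were both controls, and its log2 fold change was 0.02 (SE 0.08, interval -0.16 to 0.20). Lama2, the alpha chain of muscle and nerve sheaths, had 135, 135 and 152 CPM in ecko skin and 121, 125 and 145 CPM in controls, with the female library highest in each group (log2 fold change 0.11, SE 0.08). The 10 skeletal muscle markers summed to 5482 to 6134 CPM in ecko skin and 6508 to 9564 CPM in controls. Their sum was highest in control 1, where Lama2 was lowest. The 8 Schwann cell markers summed to 1396 to 1521 CPM in ecko skin and 1399 to 1518 CPM in controls. The part of cell content in the Lama2 values was not tested. Lama3, the alpha chain of the epidermal anchoring laminin, averaged 68.5 ± 7.35 CPM in ecko skin and 65.8 ± 3.75 CPM in controls (SD, n = 3 each). Lama1, a chain known mainly from embryonic tissue, was near the detection limit of this depth, with a mean of 1.38 CPM in ecko skin and 1.29 CPM in controls.

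Among the beta chains, Lamb2 gave the tightest libraries. It had 170, 170 and 169 CPM in ecko skin and 182, 187 and 186 CPM in controls, without overlap between groups. Lamb2 encodes the beta2 chain found in vessel, muscle and nerve basement membranes, and its difference was small (log2 fold change -0.12, SE 0.05, edgeR adjusted p = 0.284). Lamb1, the widely expressed beta chain, averaged 122 ± 7.19 CPM in ecko skin and 129 ± 9.68 CPM in controls (SD, n = 3 each; log2 fold change -0.08). Lamb3, which joins Lama3 in the epidermal anchoring laminin, averaged 104 ± 4.14 CPM in ecko skin and 96.3 ± 8.82 CPM in controls (SD, n = 3 each; log2 fold change 0.10).

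Lamc3 came closest to the threshold of all 36 genes. Its gamma3 chain is a minor laminin chain, and the gene (Entrez 23928) lies on chromosome 2 from 31887281 to 31949083 in GRCm38.p6. It had 49.4, 44.7 and 48.3 CPM in ecko 1 to 3 and 38.1, 38.3 and 40.4 CPM in controls 1 to 3. Every ecko library was above every control. The log2 fold change was 0.28 (SE 0.06, interval 0.14 to 0.43, edgeR adjusted p = 0.0669), and the adjusted p stayed between 0.0528 and 0.245 over the alternatives. An antisense gene, Gm13441, shares 6.27% of the exon bases of Lamc3, and, with the strand setting not given, reads of the pair cannot be told apart. The same holds for 5.05 to 8.04% of the exon bases of Itga8, Itgav, Itgb4 and Itga4. Lamc1, the common gamma chain of most laminins, lies on chromosome 1 from 153218922 to 153332786 in GRCm38.p6. It had 255, 275 and 277 CPM in ecko skin and 262, 297 and 282 CPM in controls, with overlap (log2 fold change -0.06, SE 0.07, interval -0.21 to 0.09).

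The makeup of the laminins was compared on a scale of CPM per kilobase of exon, which allows levels of different genes to be set side by side. Lama4 made up 23.9, 25.2 and 23.3% of the alpha chain level in ecko 1 to 3 and 24.8, 30.8 and 28.3% in controls 1 to 3. Lama5 averaged 28.4% ± 1.78 and Lama2 27.1% ± 1.28 of the alpha chain level in ecko skin (SD, n = 3). In controls the means were 27.6% ± 2.89 for Lama5 and 24.8% ± 1.54 for Lama2 (SD, n = 3), and Lama3 held 18.8 to 21.7% in ecko libraries and 18.0 to 20.6% in controls. Control 1, whose Lama4 level was low, had the lowest Lama4 share of the controls, inside the ecko range. Lamb2 held the largest share of the beta chains, 49.9% ± 0.635 in ecko skin and 52.5% ± 0.998 in controls (SD, n = 3 each).

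The share of Lamb2 did not overlap between groups, which gives a two-sided exact permutation p = 0.1, the smallest that 3 against 3 libraries allow. Over the 11 laminin shares compared, the Benjamini-Hochberg adjusted value of this exact permutation test was 0.367. The same smallest exact permutation p and adjusted value were reached by the gamma chain shares of Lamc1, lower in ecko skin, and Lamc3, higher in ecko skin, again without overlap. The Lama4 share overlapped between groups (two-sided exact permutation p = 0.2, adjusted value 0.367). In controls the mean alpha shares of Lama4 and Lama5, 28.0% ± 3.01 and 27.6% ± 2.89 (SD, n = 3), were not separated beyond their spread. With the longest transcript in place of all exons as the length, Lama4 had the largest mean alpha share in both groups. It was 33.6% in ecko skin, where Lama5 led with all exons, and 38.3% in controls, so the order of the alpha chains depends on the length used.

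**Figure D3:**
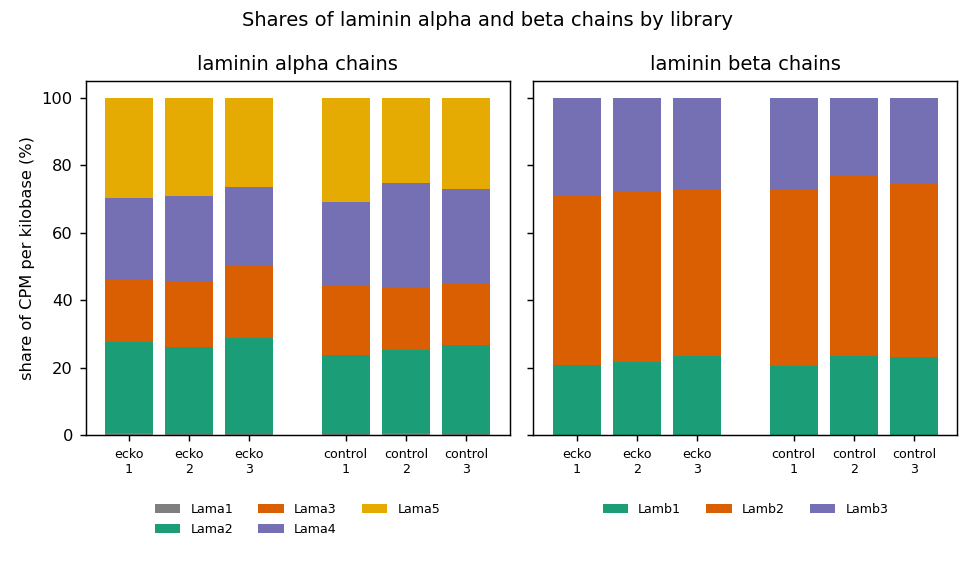
Share of each laminin chain among the alpha and beta chains of a library, in percent of CPM per kilobase of exon, for the 3 ecko and 3 control libraries. Lamb2 takes 49.3 to 50.6% of the beta chains in the ecko libraries and 51.8 to 53.6% in the controls.

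Integrin chains that bind laminin include those of the epidermal hemidesmosome. Itga6 had 297, 280 and 280 CPM in ecko 1 to 3 and 279, 243 and 267 CPM in controls 1 to 3, so the lowest ecko library lay just above the highest control (log2 fold change 0.12 with an SE of 0.07, edgeR adjusted p = 0.443). Its partner in the hemidesmosome, Itgb4, had 181, 160 and 156 CPM in ecko skin and 179, 155 and 179 CPM in controls, with full overlap (log2 fold change -0.05, SE 0.08). Itga3, the other alpha chain of the basal keratinocyte, averaged 80.5 ± 2.30 CPM in ecko skin and 82.8 ± 5.68 CPM in controls (SD, n = 3 each). The 6 basal keratinocyte markers summed to 10790 to 11220 CPM in ecko skin and 10140 to 11680 CPM in controls, which also overlap. None of these 6 passed, 4 had values above 0 and 2 below. Trp63 alone did not overlap, at 393, 407 and 389 CPM in ecko skin and 357, 313 and 282 CPM in controls. Its log2 fold change was 0.32 (SE 0.08, edgeR adjusted p = 0.115).

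Itga7 encodes the laminin receptor chain of muscle fibres and smooth muscle. It had 39.1, 43.4 and 38.8 CPM in ecko skin and 49.6, 45.3 and 45.6 CPM in controls, and every ecko library was below every control. The log2 fold change of Itga7 was -0.21 (SE 0.07, interval -0.37 to -0.05, edgeR adjusted p = 0.193). All 10 skeletal muscle markers had values below 0, with a median of -0.42, and 2 of them fell. Their summed level was 5482 to 6134 CPM in ecko skin and 6508 to 9564 CPM in controls, with control 1 highest for the markers and for Itga7. The part of muscle or mural content in the Itga7 values was not tested.

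The collagen-binding chains did not separate the groups. Itga1, a chain of vessel walls and fibroblasts, averaged 8.97 ± 2.08 CPM in ecko skin and 9.78 ± 1.31 CPM in controls (SD, n = 3 each), and its log2 fold change of -0.12 became -0.33 without ecko 3 and 0.00 without ecko 1. Its neighbour on chromosome 13, Itga2, had a log2 fold change of 0.09 (SE 0.11). Itga10, which is typical of cartilage, had -0.05 (SE 0.10), and Itga11, a fibroblast chain, had 0.08 (SE 0.11). On the same strand GENCODE places another gene, Gm42957, over 33.5% of the exon bases of Itga10, and Gm42957 has no row in the count table.

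The RGD-binding chains, named after the peptide they recognise in fibronectin and vitronectin, numbered 8, and 3 of them were higher in ecko skin without overlap, where the share over all genes was 10.2%. Itgav, the alpha chain of the vitronectin receptors, had 105, 110 and 114 CPM in ecko skin and 98.6, 102 and 102 CPM in controls (log2 fold change 0.12 with an SE of 0.06, edgeR adjusted p = 0.333). Itga8, a chain of smooth muscle and of hair follicle attachment, had 25.8, 26.8 and 33.4 CPM in ecko skin and 22.5, 24.6 and 24.0 CPM in controls. The female ecko library stood highest for Itga8, and the log2 fold change was 0.28 (SE 0.10, edgeR adjusted p = 0.252), or 0.15 without that library. Itgb8, which activates TGF-beta together with Itgav, had 1.68, 1.72 and 1.51 CPM in ecko skin and 1.44, 1.42 and 1.42 CPM in controls, a difference of few counts (log2 fold change 0.19, interval -0.27 to 0.66).

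The fibronectin receptor chain Itga5, known from sprouting vessels, had 83.5, 78.4 and 75.9 CPM in ecko skin and 74.8, 96.0 and 83.3 CPM in controls. Both the lowest and the highest library were controls, and the log2 fold change of Itga5 was -0.10 (SE 0.09). Itgb3, the beta chain of platelets and activated endothelium, averaged 17.4 ± 1.26 CPM in ecko skin and 17.9 ± 2.18 CPM in controls, and the platelet chain gene Itga2b averaged 5.30 ± 0.515 and 5.09 ± 0.591 CPM in ecko and control skin (SD, n = 3 each). The 3 platelet markers tested summed to 32.4 to 35.1 CPM in ecko skin and 31.1 to 39.0 CPM in controls. Itgb5, a widely expressed partner of Itgav, and the epithelial chain gene Itgb6 had log2 fold changes of 0.03 (SE 0.08) and -0.08 (SE 0.15).

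Itgb1, the beta chain shared by most matrix receptors, had the highest level per length of the 36 genes in both groups. Its level was 421, 436 and 466 CPM in ecko skin and 399, 459 and 417 CPM in controls (log2 fold change 0.05, SE 0.07, interval -0.11 to 0.22). Per kilobase of exon Itgb1 averaged 108 ± 5.62 CPM in ecko skin and 104 ± 7.52 CPM in controls, and made up 54.3% and 53.8% of the beta chain level (SD, n = 3 each). Among the beta chains Itgb5 followed with 51.7 ± 2.56 CPM per kilobase in ecko skin and 50.7 ± 4.61 in controls, and Itgb4 with 23.6 ± 1.93 in ecko skin and 24.4 ± 2.03 in controls. Among the alpha chains Itga6 led with 31.7 ± 1.11 CPM per kilobase in ecko skin and 29.1 ± 2.03 in controls, before Itga5, Itga3 and Itgav. In controls Itga5 and Itga3, at 17.2 ± 2.16 and 14.5 ± 0.994 CPM per kilobase, were not separated beyond their spread.

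**Figure D4:**
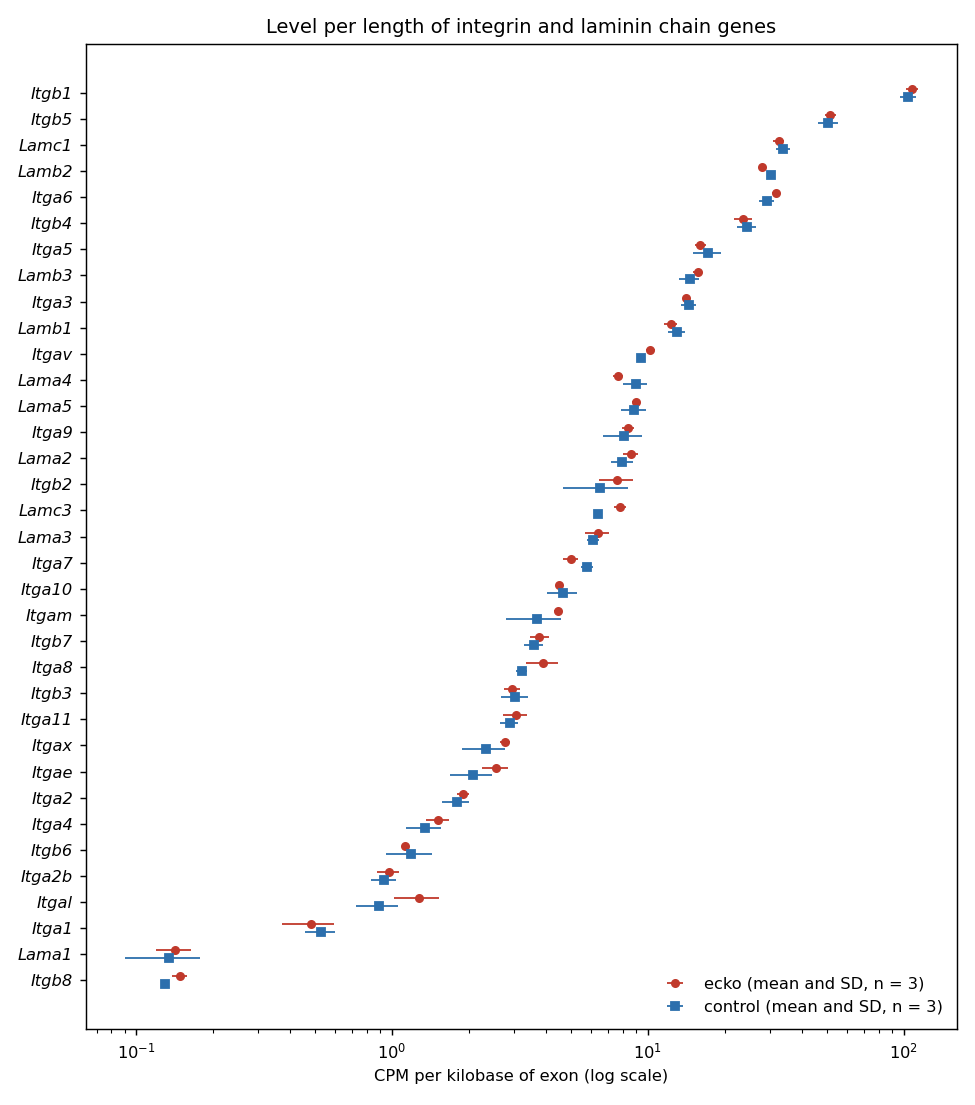
Mean level of 35 of the 36 genes in CPM per kilobase of exon on a log scale, with the SD over 3 ecko libraries (circles) and 3 control libraries (squares). Levels run from 0.142 CPM per kilobase for Lama1 to 108 for Itgb1 in ecko skin.

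The log2 fold change was positive for all 6 leukocyte chain genes (median 0.26), and none passed the test. Itgal encodes the alpha chain of LFA, the integrin with which lymphocytes bind ICAM proteins, and it had the highest fold change of the 36 genes. It had 9.79, 8.69 and 6.54 CPM in ecko 1 to 3 and 4.56, 6.49 and 6.41 CPM in controls 1 to 3. The groups did not overlap, but ecko 3 was barely above control 2. The log2 fold change of Itgal was 0.52 (SE 0.18, interval 0.11 to 0.93, edgeR adjusted p = 0.219). Over the alternatives it was highest in the male libraries alone, at 0.74 (edgeR adjusted p = 0.155). It was lowest without control 1, at 0.37 (edgeR adjusted p = 0.372), and was 0.39 without ecko 1 (edgeR adjusted p = 0.46).

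Itgam and Itgax encode the alpha chains CD11b and CD11c of macrophages, neutrophils and dendritic cells, and Itgb2 encodes their common beta chain. Itgam had 22.7, 21.6 and 22.6 CPM in ecko skin and 13.3, 21.7 and 20.5 CPM in controls. Itgax had 12.9, 14.0 and 13.1 CPM in ecko skin and 8.95, 13.2 and 11.4 CPM in controls. Control 1 was the lowest library for both genes, and the other controls reached or neared the ecko values. Itgb2 showed the same low library, at 27.4, 20.8 and 21.5 CPM in ecko skin and 13.5, 24.1 and 22.2 CPM in controls. Their log2 fold changes were 0.27 for Itgam, 0.25 for Itgax and 0.22 for Itgb2, and without control 1 they were 0.08, 0.12 and 0.00.

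Promoter sequences are shown for a pair of myeloid chain genes that were both lowest in control 1 and for a widely expressed chain, so that a leukocyte-restricted pair can be read beside a chain of many cell types. Itgam and Itgax lie side by side on chromosome 7. The windows cover 250 bases before and 50 after an annotated start, all on the plus strand, from RefSeq on GRCm38.p6: chr7:128062390-128062689 for Itgam, chr7:128129300-128129599 for Itgax and chr2:83724147-83724446 for Itgav. Capitals mark GAGGAA, a form of the site bound by the myeloid factor PU.1, and GGGCGG, the GC box bound by Sp1, each on either strand. The shorter core GGAA was neither marked nor counted.
Itgam: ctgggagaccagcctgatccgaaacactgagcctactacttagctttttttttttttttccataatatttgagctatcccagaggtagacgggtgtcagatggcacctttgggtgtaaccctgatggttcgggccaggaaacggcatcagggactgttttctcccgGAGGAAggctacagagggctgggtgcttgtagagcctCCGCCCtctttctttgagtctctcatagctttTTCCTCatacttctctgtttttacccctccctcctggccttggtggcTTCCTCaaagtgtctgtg
Itgax: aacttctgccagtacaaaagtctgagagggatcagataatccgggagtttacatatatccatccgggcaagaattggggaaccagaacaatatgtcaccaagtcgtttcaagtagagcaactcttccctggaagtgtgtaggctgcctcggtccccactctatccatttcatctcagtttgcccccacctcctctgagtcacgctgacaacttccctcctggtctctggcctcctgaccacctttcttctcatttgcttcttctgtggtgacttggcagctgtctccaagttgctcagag
Itgav: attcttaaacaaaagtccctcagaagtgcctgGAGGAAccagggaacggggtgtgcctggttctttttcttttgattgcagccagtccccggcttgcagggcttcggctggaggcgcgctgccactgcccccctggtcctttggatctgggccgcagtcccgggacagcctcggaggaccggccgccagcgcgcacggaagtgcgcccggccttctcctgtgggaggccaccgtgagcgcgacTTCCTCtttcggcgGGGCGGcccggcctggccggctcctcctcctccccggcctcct
Itgam holds GAGGAA 3 times and GGGCGG 1 time, Itgax holds neither, and Itgav holds GAGGAA 2 times and GGGCGG 1 time. The Itgam and Itgax windows have 6 and 5 CpG pairs, and the Itgav window has 24, against a median of 7 over 32851 windows of all genes. A window was listed for 23 of the 36 genes, some with more than a single start, which gave 26 windows with a median of 11 CpG pairs. GAGGAA was found in 14 of these 26 windows and in 28.3% of all windows, GGGCGG in 12 of them and in 35.7% of all windows, and TATAAA in 0 of them and in 13.6% of all windows. GENCODE places another gene on the same strand, Gm49368, over 68.7% of the exon bases of Itgam. Gm49368 has no row in the count table, so how its reads were assigned is not known.

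Itgae, the alpha chain of lymphocytes held in the epidermis, had 13.0, 10.3 and 11.8 CPM in ecko skin and 9.18, 7.91 and 11.4 CPM in controls (log2 fold change 0.30 with an SE of 0.15, edgeR adjusted p = 0.372). Its partner Itgb7 averaged 10.5 ± 0.896 CPM in ecko skin and 9.93 ± 0.825 CPM in controls (SD, n = 3 each). Itga4, which pairs with Itgb1 or Itgb7 on leukocytes, had a log2 fold change of 0.18 (SE 0.13), or 0.06 without control 1. Itga9, a related chain of lymphatic valves and epithelia, had 61.2, 63.5 and 67.9 CPM in ecko skin and 50.2, 65.5 and 70.7 CPM in controls, with control 1 again lowest (log2 fold change 0.05, SE 0.11).

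Leukocyte markers were read in the same libraries. The 6 general leukocyte markers all had values above 0 and none passed, and they summed to 348 to 365 CPM in ecko skin and 242 to 329 CPM in controls, with control 1 lowest. Ptprc, the gene of the pan-leukocyte protein CD45, had 51.9, 46.1 and 50.2 CPM in ecko skin and 31.2, 39.6 and 42.0 CPM in controls (log2 fold change 0.39 with an SE of 0.10, edgeR adjusted p = 0.114). The 9 myeloid markers tested summed to 427 to 555 CPM in ecko skin and 265 to 398 CPM in controls. None of these 9 passed, all had values above 0, and 3 were higher without overlap. S100a8 and S100a9 varied widely, at 79.2 and 77.6 CPM in ecko 2 but 8.44 and 11.7 CPM in ecko 3. The 7 T and NK markers tested summed to 33.9 to 35.6 CPM in ecko skin and 30.3 to 35.4 CPM in controls. Of these 7, 4 had values above 0 and 3 below. Foxp3, which marks regulatory T cells, had 2.49, 1.88 and 2.24 CPM in ecko skin and 1.21, 0.740 and 0.907 CPM in controls and alone passed (edgeR adjusted p = 0.0496). The T cell receptor complex gene Cd3d had 2.38, 1.99 and 2.07 CPM in ecko skin and 3.12, 3.02 and 2.89 CPM in controls, lower without overlap (log2 fold change -0.49, edgeR adjusted p = 0.219), while its complex partners Cd3g and Cd3e had -0.09 and -0.03. The part of leukocyte content in the integrin values was not tested.

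**Figure D5:**
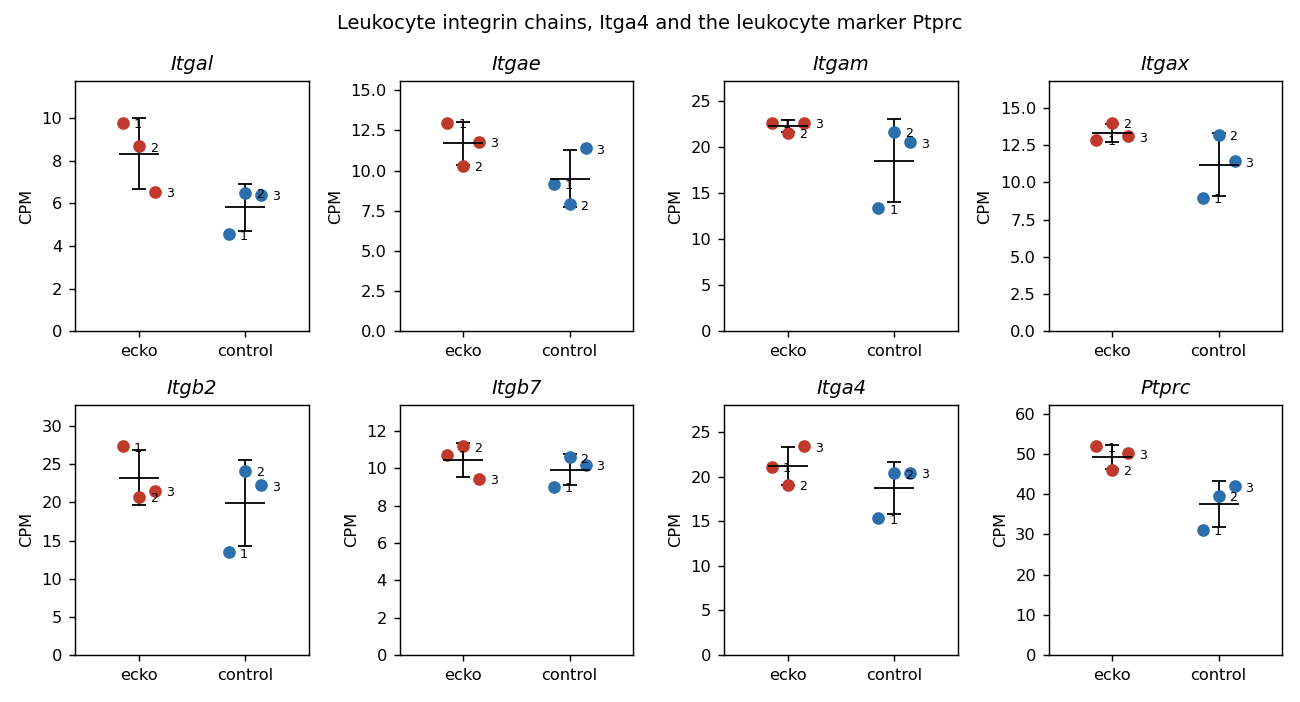
CPM of the 6 leukocyte integrin chain genes, of Itga4 and of the leukocyte marker Ptprc in ecko and control libraries, with points numbered by replicate and bars for the mean and SD of 3 libraries. Control 1 is the lowest point for Itgal, Itgam, Itgax, Itgb2, Itgb7, Itga4 and Ptprc, and Itgam stands at 13.3 CPM there.

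Genes that work with integrins and laminins were described by 4 lists. Of 28 adaptors and activators that link integrin tails to actin, none passed, 10 had values above 0 and 18 below, and the median was -0.05. The smallest p among them belonged to the talin gene Tln2 (-0.23, SE 0.08), the docking protein gene Bcar1 (-0.21, SE 0.07), the parvin gene Parvb (-0.29, SE 0.10) and the tensin gene Tns3 (0.15, SE 0.06), with edgeR adjusted p between 0.208 and 0.242. Of 8 hemidesmosome and tetraspanin partners none passed, with Plec, the plectin gene that ties Itgb4 to keratin, at -0.19 (SE 0.06) and the tetraspanin gene Cd151 at -0.17 (SE 0.06), and the median was -0.01. The basal keratin gene Krt14 and the tetraspanin gene Cd9 had 0.10 (SE 0.10) and -0.05 (SE 0.06), with overlap. All ecko libraries lay below all controls for Plec and Cd151, at 490, 472 and 451 CPM for Plec in ecko skin and 540, 525 and 552 CPM in controls.

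Of 16 basement membrane partners of laminins none passed, 12 had values below 0 and 4 above, and the median was -0.13. Groups did not overlap for 6 of them, all lower in ecko skin, where 10.8% of all genes tested were lower without overlap. Npnt, the gene of the Itga8 ligand nephronectin, had 54.8, 58.1 and 56.6 CPM in ecko skin and 66.0, 64.4 and 66.1 CPM in controls (log2 fold change -0.21, SE 0.06, edgeR adjusted p = 0.117). Nid2, a nidogen gene whose protein links laminin to collagen, had 82.6, 74.2 and 80.0 CPM in ecko skin and 89.0, 110 and 90.4 CPM in controls (log2 fold change -0.29 with an SE of 0.09, edgeR adjusted p = 0.156). The perlecan gene Hspg2 had -0.18 (SE 0.06) and Fras1, which is needed to hold epidermis to dermis, had -0.45 (SE 0.15), with edgeR adjusted p of 0.234 and 0.208.

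Of 24 integrin ligands tested outside the laminins and collagens, 2 fell and none rose with edgeR, where 1.08% of all genes fell, and the median was 0.03. Groups did not overlap for 5 that were higher and 4 that were lower in ecko skin, against 10.2% and 10.8% of all genes. Vtn, the gene of the Itgav ligand vitronectin, had 4.23, 3.71 and 3.36 CPM in ecko skin and 7.62, 7.46 and 6.80 CPM in controls, without overlap. For Vtn the log2 fold change was -0.95 (SE 0.14) at an edgeR adjusted p of 0.00941, and the call ended without ecko 2 (edgeR adjusted p = 0.0663) and in the male libraries alone (edgeR adjusted p = 0.0541). Vwf, the endothelial gene of von Willebrand factor, had 41.3, 43.5 and 43.1 CPM in ecko skin and 55.6, 61.6 and 51.5 CPM in controls (log2 fold change -0.40 with an SE of 0.08, edgeR adjusted p = 0.0343). The Vwf call held in 1 of the 6 fits that left out a library, the one without control 3, and its edgeR adjusted p without the others reached 0.150. The endothelial and mural marker sums given above were lower in the same ecko libraries, and their part in the Vtn and Vwf values was not tested.

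Other ligand genes did not pass. Svep1, the gene of an Itga9 ligand, had 109, 99.9 and 106 CPM in ecko skin and 68.9, 84.0 and 91.9 CPM in controls, without overlap (log2 fold change 0.37 with an SE of 0.10, edgeR adjusted p = 0.111). DESeq2 called Svep1 at an adjusted p of 0.0191, and also Postn, the periostin gene, at 0.0245 and Thbs1, the thrombospondin gene, at 0.0470, all higher in ecko skin without overlap. With edgeR, Postn had 0.30 (SE 0.10, adjusted p = 0.196) and Thbs1 had 0.41 (SE 0.15, adjusted p = 0.233). Icam2, which encodes an endothelial ligand of the Itgal product, had -0.50 (SE 0.16, edgeR adjusted p = 0.186).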

How the data were processed

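RNA came from snap-frozen ear skin, with poly(A) selection and random priming, per the labels' protocols. The authors deposited estimated counts (expected counts) per gene, not scaled between libraries, 1 column per library, per the file headers; 10.5% of all values but none of those of the 36 genes were not whole. HISAT2 2.2.1, Bowtie2 2.4.5, RSEM 1.3.1 and GRCm38.p6 are named in the submitters' processing notes, without their roles. The strand setting and annotation release are not given in the sources used here.

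Counts were rounded, filtered with filterByExpr (minimum count 10; 14866 of 18422 genes kept) and scaled by TMM. Ecko was tested against control with the edgeR quasi-likelihood test (edgeR 4.0.16, R 4.3.3) over all genes, with Benjamini-Hochberg adjustment at 0.05 and genotype as the only term. The script was tested on simulated data. Over 10 simulated sets, 18.2, 58.6, 97.8 and 100% of changes of log2 size 0.3, 0.5, 1 and 2 were recovered on average. The changes were placed only in well-counted genes, so these rates do not cover genes with as few counts as Lama1 and Itgb8. Of the calls in these sets, 9.07% were false on average, above the 5% aimed at. SE is the size of the log2 fold change over the square root of F. CPM uses TMM-scaled totals. Levels per kilobase use the union of GENCODE M21 exons (GRCm38), matched by Entrez identifier. Coordinates are from RefSeq on GRCm38.p6. A library with at least 500 reads from 4 Y-linked genes was taken as male. Between libraries of a group the variance of counts was 5.05 to 15.4 times that of sampling alone, so no library was a duplicate. As alternatives served DESeq2 1.42.0, RLE factors, upper-quartile factors, limma-voom (limma 3.58.1), other filters, a sex term, a replicate term, male libraries alone, each library left out, and a threshold of 0.1.

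The genes and lists were chosen with earlier results of these data known. Named were 35 of the 36 genes (the other is counted but not reported here), Kdr, markers beside results, and from the partner lists each gene that passed and up to 4 with the smallest p. Values in every library were also given for chains outside that rule, chosen after their values were seen. Lamb4 was matched to no row and is not analysed here.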

Additional observations from a re-analysis of the deposited data

How the results depend on the processing

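None of the 36 integrin and laminin genes was called in any of the 15 alternative fits, and 1 of them, Lamc3, passed at a threshold of 0.1. Of 540 log2 fold changes over these fits, 519 moved by under 1 SE and 21 by 1 SE or more. The sign changed in at least 1 fit for 15 genes, none with a main value past 0.125 in size. Counts over all genes were 262 in the main test, 426 with DESeq2, 174 in male libraries alone, 451 at a threshold of 0.1, and between 56 and 407 when a library was left out: 74, 56 and 132 without ecko 1, 2 and 3 and 161, 116 and 407 without control 1, 2 and 3. Genes called on the 4 partner lists were 2 in the main test, 5 with DESeq2, 0 in male libraries alone and between 0 and 5 when a library was left out. Fits without a library or without females hold fewer samples; the cause was otherwise not tested. With the replicate number as a block, 192 genes, 0 of the 36 and the same number of partner genes, 2, were called; deviations of same-numbered libraries correlated at 0.08, 0.04 and 0.21, so the numbers were not taken as pairs. The Lama4 share difference of -3.89 percentage points was -5.47 without control 1 and -2.47 without control 2, and between these values in the other alternatives. Lama1 and Itgb8, with 17 to 31 counts per library, are limited by depth.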
